A study of Homo sapiens with 9 samples.

Results

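The SCAN-domain zinc finger genes were taken from the count table by name, as every ZSCAN or ZKSCAN gene followed by a number, together with SCAND1. This gave 29 genes of the 59453 gene names: 21 ZSCAN genes, 7 ZKSCAN genes and SCAND1. ZSCAN31 had been singled out beforehand as a gene with a strong rise at 24 h, so its values at that time are given as a description, without a test. The cells were MDA-MB-231, a human triple-negative breast cancer (TNBC) line in wide use, sequenced as 3 groups of 3 replicates. The groups were untreated cells, cells treated with the polyamine copper chelator TEPA for 8 h, and cells treated with TEPA for 24 h. All 9 libraries came from the same line, grown in DMEM with serum, and a single untreated group served both times. The labels give no harvest time for the untreated cells, so the part of time in culture was not tested. The concentration of TEPA is given as 4 mM in the sequencing methods and as 8 mM in the sample labels. Nothing in the labels states that the replicates were separate cultures, so p-values here measure the spread between these libraries.

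Replicates 1, 2 and 3 of the untreated cells had total counts of 37640135, 46515260 and 39937052. At 8 h the totals were 40719360, 38989396 and 37617385, and at 24 h they were 49342659, 42338742 and 34633755. The line was checked against its markers. VIM, the mesenchymal intermediate filament, was at 3674 ± 124 CPM (counts scaled to a common library size with TMM factors, mean ± SD, n = 3) in untreated cells and CD44 was at 859 ± 61.3 CPM. The estrogen receptor gene ESR1 had at most 9 counts in any library, and the progesterone receptor gene PGR had 0. ERBB2, the gene of the receptor HER2, was detected in all libraries, with mean levels of 81.4 ± 5.11, 73.2 ± 3.24 and 53.0 ± 0.969 CPM in untreated, 8 h and 24 h cells. Of epithelial markers, EPCAM had 36 to 71 counts and was called at neither time. KRT19 had at most 23 counts and was higher at 24 h (log2 fold change 1.05, adjusted p = 0.02 by edgeR's quasi-likelihood test). Among markers of other cell types, PTPRC of leukocytes had at most 5 counts, ALB of liver at most 2 and SOX10 of neural crest cells 0. PECAM1, an endothelial marker, had 153, 136 and 147 counts in untreated cells, 34, 41 and 46 at 8 h, and 364, 357 and 323 at 24 h. The part of this shift in the results below was not tested. In bulk RNA, fewer cells of a kind and less RNA per cell cannot be told apart.

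The SCAN domain is a leucine-rich stretch near the amino end of certain vertebrate transcription factors, through which they bind one another as homodimers or heterodimers. ZSCAN proteins carry it beside an array of C2H2 zinc fingers that contacts DNA, and ZKSCAN proteins hold a KRAB domain as well, a module that in many zinc finger proteins recruits the corepressor TRIM28 and its partners to silence chromatin. SCAND1 has the SCAN domain without zinc fingers and can pair with other SCAN proteins, MZF1 among them. Many of these genes lie in runs of neighbours formed by duplication, the best known of which is on chromosome 6 beside the histone genes.

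Of the 29 genes, 23 passed edgeR's filter on low counts and were tested, and each of the 23 had at least 25 counts in every library. The 6 others were near or at the limit of detection. ZSCAN4, a gene of early embryos and telomere maintenance, and ZSCAN1 had 0 counts in all 9 libraries, where a count of 0 allows up to 3 counts, or 0.0588 to 0.0834 CPM depending on the library. ZSCAN10, a factor of pluripotent cells, had at most 1 count, ZSCAN5C at most 1 and ZSCAN5B at most 2. ZSCAN23 had 12, 13 and 7 counts in untreated cells, 5, 8 and 6 at 8 h, and 4, 8 and 4 at 24 h, so that all 3 groups overlapped. No fold change is given for these genes.

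Levels between genes are compared per kilobase of exon. In untreated cells SCAND1 was the most abundant of the 23 tested genes, at 25.2 CPM per kb. It was followed by ZKSCAN5 at 5.16, ZKSCAN1 at 4.92 and ZKSCAN8 at 4.24 CPM per kb. The least abundant was ZKSCAN7, at 0.165 CPM per kb. ZSCAN31 stood at place 20 of 23, at 0.582 CPM per kb, between ZSCAN5A at 0.609 and ZSCAN12 at 0.55. At 24 h ZSCAN31 had moved to place 6, at 3.59 CPM per kb, while SCAND1, ZKSCAN5, ZKSCAN1 and ZKSCAN8 kept the first 4 places in the same order.

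**Figure D1:**
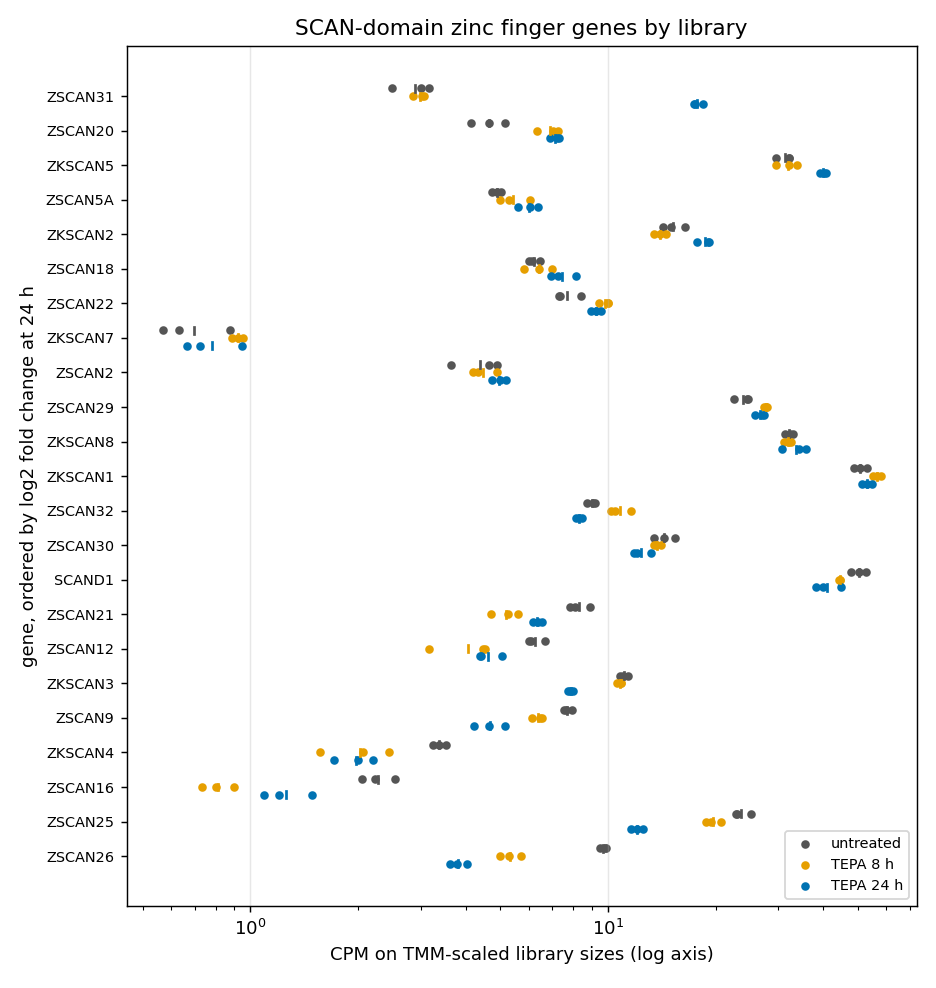
CPM of the 23 tested SCAN-domain genes on a log axis, each point being 1 library and each short bar the mean of 3 libraries, with genes ordered by their log2 fold change at 24 h. ZSCAN31 at the top has its 3 TEPA 24 h points between 17.4 and 18.4 CPM, far to the right of the other 6 points, and ZSCAN26 and ZSCAN25 have theirs to the left.

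ZSCAN31 was the member with the largest change. The gene (ENSG00000235109.8) lies on the minus strand of chr6:28324693-28356271 on GRCh38 and encodes a zinc finger protein with a SCAN domain and no KRAB domain. Its counts were 119, 137 and 98 in untreated cells, 121, 109 and 113 at 8 h, and 886, 796 and 631 at 24 h. On the CPM scale these were 3.17, 3.0 and 2.49, then 3.02, 2.85 and 3.07, and then 17.4, 18.4 and 17.5. The untreated and 8 h libraries overlapped, and all 3 libraries at 24 h lay far above the other 6. At 8 h the log2 fold change was 0.05 (SE 0.11, adjusted p = 0.75 by edgeR's quasi-likelihood test). At 24 h it was 2.62 (SE 0.09), a 6.16-fold higher level than in untreated cells, which placed ZSCAN31 at rank 26 from the highest of 16556 tested genes. Against the 8 h cells the log2 difference was 2.57 (SE 0.09).

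Its share of the summed CPM of all members changed accordingly, from 0.964, 0.897 and 0.754% in untreated cells and 0.96, 0.871 and 0.948% at 8 h to 5.31, 5.57 and 5.3% at 24 h. The sum itself moved little. It was 329.1, 334.3 and 329.6 CPM in untreated cells, 315.0, 327.1 and 324.5 CPM at 8 h, and 327.2, 331.3 and 331.3 CPM at 24 h. All 3 libraries at 8 h were below the 3 untreated libraries, and those at 24 h overlapped them.

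ZKSCAN3, which encodes a KRAB and SCAN zinc finger repressor of autophagy and lysosome genes, starts inside ZSCAN31 and runs the other way, on the plus strand of chr6:28349947-28369172. The annotated genes share 6325 bases, and the authors' counting used strand. ZKSCAN3 was at 11.4, 10.8 and 11 CPM in untreated cells, 10.9, 10.9 and 10.6 CPM at 8 h, and 7.83, 7.76 and 8.01 CPM at 24 h. The first 2 groups overlapped, and the 24 h libraries were all lower. The change on the log2 scale was -0.03 (SE 0.07, adjusted p = 0.71) at 8 h and -0.49 (SE 0.07, adjusted p = 2e-05) at 24 h. ZSCAN31 and ZKSCAN3 thus overlapped the untreated libraries at 8 h and stood apart from them at 24 h, in opposite directions. For ZKSCAN3 the comparison of 24 h with 8 h had an adjusted p of 3.9e-05 by edgeR's quasi-likelihood test.

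The promoters of this gene pair are shown because they start on opposite strands within the same stretch of chromosome 6 and their RNAs moved apart. That of ZSCAN9, a neighbour that fell at both times, is set beside them. Each sequence is the 250 bases before an annotated RefSeq start (GRCh38.p14), read 5′ to 3′ on the strand of the gene, with CpG dinucleotides in capitals. ZSCAN31 has more than 1 annotated start, and the counts do not tell which of them was used. An annotated start inside the gene, with its promoter at chr6:28336135-28336384 on the minus strand, has 12 CpG in 250 bases. Another start close to it inside the gene is not shown. The farthest upstream start, with its promoter at chr6:28356272-28356521 on the minus strand, has 3. ZKSCAN3, at chr6:28349697-28349946 on the plus strand, has 7. ZSCAN9 also has more than 1 annotated start, and the first of them, at chr6:28224990-28225239 on the plus strand, has 12.
ZSCAN31 inner start: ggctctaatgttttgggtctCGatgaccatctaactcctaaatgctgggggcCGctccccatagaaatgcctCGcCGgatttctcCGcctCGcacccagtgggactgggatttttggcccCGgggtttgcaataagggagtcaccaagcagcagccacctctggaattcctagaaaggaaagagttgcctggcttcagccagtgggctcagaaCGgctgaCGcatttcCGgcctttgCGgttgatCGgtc
ZSCAN31 far upstream start: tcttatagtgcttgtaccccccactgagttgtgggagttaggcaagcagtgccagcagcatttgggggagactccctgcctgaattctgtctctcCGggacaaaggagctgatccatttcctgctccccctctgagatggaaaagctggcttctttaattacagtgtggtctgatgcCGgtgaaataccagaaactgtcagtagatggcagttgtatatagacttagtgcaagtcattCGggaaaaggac
ZKSCAN3: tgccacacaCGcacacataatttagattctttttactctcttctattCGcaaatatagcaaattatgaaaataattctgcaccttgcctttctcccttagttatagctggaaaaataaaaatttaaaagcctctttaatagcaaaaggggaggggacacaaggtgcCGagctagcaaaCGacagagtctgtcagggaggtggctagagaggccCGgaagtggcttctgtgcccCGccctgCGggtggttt
ZSCAN9: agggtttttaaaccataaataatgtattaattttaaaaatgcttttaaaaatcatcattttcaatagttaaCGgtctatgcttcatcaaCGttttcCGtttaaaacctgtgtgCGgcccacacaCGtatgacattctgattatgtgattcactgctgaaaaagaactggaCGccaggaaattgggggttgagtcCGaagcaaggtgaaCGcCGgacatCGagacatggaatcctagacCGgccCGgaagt
The start of ZKSCAN3 lies 13.8 kb from the inner and 6.32 kb from the far upstream start of ZSCAN31. GC content of the printed stretches was 56.4%, 49.2%, 44.8% and 40.8% in the order shown. The letters TGCACNC and TGCGCNC, the core of the metal response element bound by the zinc sensor MTF1, were searched on both strands of the windows from 250 bases before to 50 after each start. None of the windows of these 4 starts held them. RefSeq windows were at hand for 25 of the 29 members, 41 windows in all, and 11 of the 41 (26.8%) held the letters, against 29.6% of all 35116 promoter windows. A match or its absence describes only these letters in these windows.

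Chromosome 6 carried the largest run of members, 9 genes in 335.8 kb (chr6:28107689-28443502), of which 8 were tested and ZSCAN23 was not. Most of them fell. Lower levels were called for 5 of the 8 at 8 h (24.5% of all tested genes were lower), and higher ones for 0 (25.2%), with a median of -0.45 on the log2 scale. At 24 h, 6 were lower (26.8% of all tested genes), and the median was -0.60. ZSCAN31 was the only tested member of the run that was higher (25.7% of all tested genes). It had been named in advance for that rise, so its call is a description. ZKSCAN8 was the tested member of the run without a call at either time, at 32.1 ± 0.826 CPM in untreated cells, 31.9 ± 0.762 at 8 h and 33.6 ± 2.65 at 24 h.

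ZSCAN26 (chr6:28267058-28278224, plus strand) showed the largest fall of the members at 24 h. It was at 9.81, 9.85 and 9.48 CPM in untreated cells, 5.72, 5.28 and 4.98 CPM at 8 h, and 3.61, 4.05 and 3.78 CPM at 24 h. No group overlapped another, and the level stepped down from each time to the next. The log2 fold change was -0.87 (SE 0.09, adjusted p = 9.1e-07) at 8 h and -1.35 (SE 0.09, adjusted p = 6.7e-09) at 24 h, and the fall from 8 h to 24 h was called as well (-0.48, adjusted p = 0.00044). Exons of ZSCAN26 share 292 bases with an unnamed annotated gene on the same strand. Overlaps of this kind were also found for ZSCAN16 (180 bases), ZSCAN5A (164), ZKSCAN7 (160, with ZNF660) and ZSCAN30 (71), and reads there cannot be assigned to a single gene in this annotation (GENCODE 44).

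PGBD1, its neighbour, a gene derived from a piggyBac transposase that also holds a SCAN domain but is not a member by name, also fell at both times. It was at 15.4, 15.2 and 15 CPM in untreated cells, 8.07, 8.1 and 8.22 CPM at 8 h, and 5.45, 6.16 and 6.09 CPM at 24 h. All 3 groups were apart. PGBD1 had log2 fold changes of -0.90 (SE 0.07, adjusted p = 9.5e-08) at 8 h and of -1.37 (SE 0.07, adjusted p = 7.6e-10) at 24 h.

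ZSCAN16 (chr6:28107689-28130082, plus strand) had the largest fall at 8 h and stood partly back at 24 h. Its 2.05, 2.54 and 2.23 CPM in untreated cells compared with 0.80, 0.732 and 0.898 CPM at 8 h and 1.49, 1.09 and 1.20 CPM at 24 h. Every 24 h library was above every 8 h library and below every untreated one. The log2 fold change was -1.49 (SE 0.19, adjusted p = 9e-06) at 8 h, 2.81-fold lower than untreated, and -0.85 (SE 0.17, adjusted p = 0.00065) at 24 h. The difference of 0.65 between the times (SE 0.20, adjusted p = 0.012) did not pass without TEPA 24 h replicate 1 (0.49, adjusted p = 0.080). Its antisense neighbour ZSCAN16-AS1 stood at -0.42 on the log2 scale (adjusted p = 0.049) at 8 h and at -0.21 (adjusted p = 0.29) at 24 h.

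The remaining tested genes of the run that were lower were ZSCAN9, ZKSCAN4 and ZSCAN12. ZSCAN9 was at 7.92, 7.64 and 7.56 CPM in untreated cells, 6.45, 6.14 and 6.53 CPM at 8 h, and 4.65, 5.17 and 4.23 CPM at 24 h, with no overlap between any groups. Its log2 fold change was -0.27 (adjusted p = 0.018) at 8 h, which did not pass when TEPA 8 h replicate 2 was omitted (-0.25, adjusted p = 0.061), and -0.71 (SE 0.09, adjusted p = 8.1e-06) at 24 h. ZKSCAN4, with a KRAB domain, fell from 3.52, 3.24 and 3.37 CPM to 1.57, 2.07 and 2.45 CPM at 8 h and 1.71, 2.2 and 2.0 CPM at 24 h. Its TEPA groups overlapped each other and neither overlapped the untreated group. On the log2 scale ZKSCAN4 changed by -0.74 (SE 0.16, adjusted p = 0.0012) and -0.78 (SE 0.16, adjusted p = 0.00057). ZSCAN12 was lower at both times too, at 6.08, 6.0 and 6.69 CPM untreated against 3.17, 4.47 and 4.54 CPM at 8 h and 4.43, 5.05 and 4.39 CPM at 24 h. ZSCAN12 changed by -0.63 (SE 0.13, adjusted p = 0.0007) at 8 h and by -0.43 (SE 0.12, adjusted p = 0.0072) at 24 h. The first TEPA 8 h library was the lowest of the 9 in both ZKSCAN4 and ZSCAN12.

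**Figure D2:**
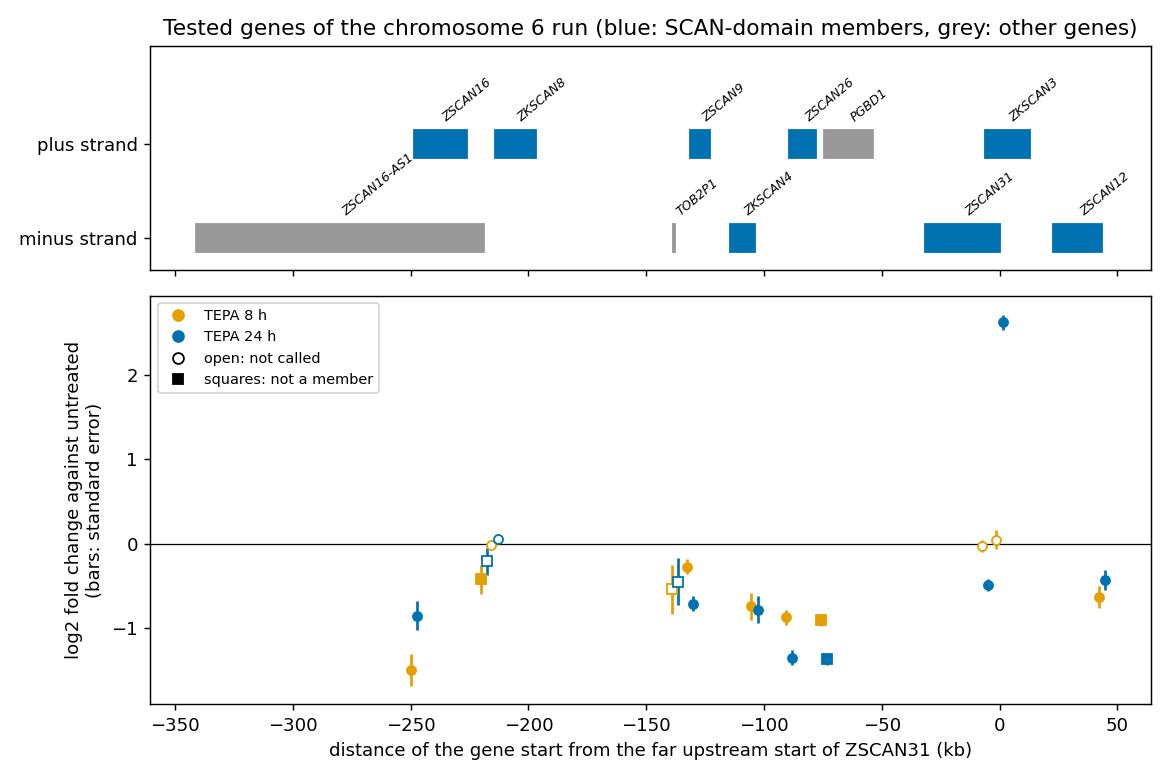
Upper panel, tested genes of the chromosome 6 run by strand, with members in blue and other genes in grey; lower panel, log2 fold change of each gene against untreated cells with its standard error, placed at the start of the gene in kb from the far upstream start of ZSCAN31. The 24 h point of ZSCAN31 lies at 2.62, while ZSCAN26 and PGBD1 lie at -1.35 and -1.37.

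Changes after 8 h of TEPA were asked across all members. Against untreated cells, 5 of the 23 tested members were higher (25.2% of all tested genes were) and 8 were lower (24.5%) at an adjusted p under 0.05, 56.5% in all, where 49.6% of all tested genes were called. The share was near that background. Their median log2 fold change was -0.01, against -0.00 for all tested genes. The TEPA 8 h and untreated libraries did not overlap for 14 members (60.9%), against 57.8% of all tested genes. With a log2 fold change beyond 0.5 as a second condition, 1 member was higher and 5 lower, 26.1% beside 17.8% of all tested genes. By 1 library left out at a time, 10 of the 13 calls held in every fit.

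ZSCAN20 (chr1:33472645-33501643, plus strand) had the largest rise at 8 h. It was at 5.17, 4.66 and 4.13 CPM in untreated cells, 7.25, 7.01 and 6.34 CPM at 8 h, and 7.28, 7.23 and 6.87 CPM at 24 h. Both TEPA groups lay above all untreated libraries and overlapped each other. The log2 fold change was 0.56 (SE 0.10, adjusted p = 0.00023) at 8 h and 0.62 (SE 0.10, adjusted p = 7.1e-05) at 24 h. ZSCAN22 and ZSCAN29 were also higher at both times. ZSCAN22 was at 7.3, 7.33 and 8.39 CPM untreated, 9.45, 10.0 and 9.99 CPM at 8 h and 9.24, 8.97 and 9.59 CPM at 24 h, with log2 fold changes of 0.36 (adjusted p = 0.0016) and 0.27 (adjusted p = 0.0095). ZSCAN29 had smaller log2 fold changes, 0.21 (adjusted p = 0.0042) at 8 h and 0.16 (adjusted p = 0.018) at 24 h. This second call was lost in 3 of the 6 fits with a library omitted, those without TEPA 24 h replicate 1 (0.15, adjusted p = 0.065), TEPA 24 h replicate 3 (0.15, adjusted p = 0.057) and untreated replicate 1 (0.12, adjusted p = 0.069).

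ZSCAN32 and ZKSCAN1 were called higher at 8 h and not at 24 h. ZSCAN32 was at 8.74, 9.06 and 9.18 CPM untreated, 10.2, 10.5 and 11.6 CPM at 8 h, and 8.47, 8.29 and 8.15 CPM at 24 h. The 8 h group was above both of the others, which also did not overlap. Its log2 fold change was 0.26 (adjusted p = 0.0091) at 8 h, a call lost without TEPA 8 h replicate 3 (0.20, adjusted p = 0.063), and -0.11 (adjusted p = 0.22) at 24 h. Between the times the difference was called (-0.37, SE 0.07, adjusted p = 0.00054). ZKSCAN1, host gene of an abundant circular RNA, was at 50.8 ± 2.23 CPM untreated, 56.6 ± 1.4 CPM at 8 h and 53.1 ± 1.85 CPM at 24 h. Its log2 fold change of 0.15 (SE 0.05, adjusted p = 0.011) at 8 h did not pass without TEPA 8 h replicate 2 (0.13, adjusted p = 0.062), and at 24 h it was 0.06 (adjusted p = 0.28).

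Among the genes lower at 8 h outside chromosome 6 were ZSCAN21, ZSCAN25 and SCAND1. ZSCAN21, reported as an activator of the alpha-synuclein gene, was at 7.86, 8.1 and 8.9 CPM untreated, 5.27, 5.62 and 4.71 CPM at 8 h, and 6.36, 6.53 and 6.17 CPM at 24 h. The 3 groups were apart, with the 24 h libraries in between. Its log2 fold change was -0.67 (SE 0.09, adjusted p = 2.1e-05) at 8 h and -0.38 (SE 0.09, adjusted p = 0.0019) at 24 h. The return of 0.29 (adjusted p = 0.016) did not pass without TEPA 8 h replicate 3 (0.23, adjusted p = 0.075).

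SCAND1 (chr20:35953617-35959472, minus strand), the dimer partner without fingers, was at 52.6, 48.0 and 50.5 CPM untreated, 44.7, 44.2 and 44.7 CPM at 8 h, and 40, 44.9 and 38.2 CPM at 24 h. All 6 TEPA libraries were below all untreated ones, and the TEPA groups overlapped each other. SCAND1 changed by -0.18 (SE 0.06, adjusted p = 0.015) at 8 h and by -0.29 (SE 0.06, adjusted p = 0.00037) at 24 h on the log2 scale.

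After 24 h more members were called. Of the 23, 8 were higher, with ZSCAN31 named in advance among them, and 10 were lower, 78.3% in all beside 52.5% of all tested genes. Of all tested genes 25.7% were higher and 26.8% lower. The share of members was above that background, a difference that was not tested. Their median log2 fold change was 0.06, against 0.00 for all tested genes, and their median size was 0.30 against 0.24. The TEPA 24 h and untreated libraries did not overlap for 19 members (82.6%), beside 57.2% of all tested genes. With a log2 fold change beyond 0.5 as well, 2 were higher and 5 lower, 30.4% of the tested members beside 18.7% of all tested genes. Without TEPA 24 h replicate 1, 5 members were higher in place of 8, because ZSCAN5A, ZSCAN18 and ZSCAN29 were no longer called. The comparisons at 8 h and 24 h share the untreated libraries.

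Set side by side, 3 genes were higher at both times (ZSCAN20, ZSCAN22 and ZSCAN29), as were 11.4% of all tested genes. Lower at both were 8 (ZSCAN9, ZSCAN12, ZSCAN16, ZSCAN21, ZSCAN25, ZSCAN26, ZKSCAN4 and SCAND1), beside 12.6% of all tested genes. Calls in the same direction at both times rest in part on the same untreated libraries. Called at 24 h and not at 8 h were 5 higher genes (ZSCAN31, ZKSCAN5, ZKSCAN2, ZSCAN5A and ZSCAN18) and 2 lower ones (ZKSCAN3 and ZSCAN30), patterns that 10.9% and 10.8% of all tested genes had. ZSCAN31 among these had been named in advance. The direct comparison of the times did not pass for ZSCAN5A (0.15, adjusted p = 0.21), ZSCAN18 (0.22, adjusted p = 0.059) or ZSCAN30 (-0.15, adjusted p = 0.089). Called higher at 8 h and not at 24 h were 2 genes, ZSCAN32 and ZKSCAN1 (10.3% of all tested genes), and for ZKSCAN1 the direct comparison did not pass either (-0.09, adjusted p = 0.1). No member was called in opposite directions. Among all tested genes, a call above untreated cells at the first time and below them at the second was rare (3.45%). The reverse order was equally rare (3.45%). The remaining 3 members (ZKSCAN7, ZKSCAN8 and ZSCAN2) had no call at either time, as had 28.7% of all tested genes. By kind, 6 of the 15 tested ZSCAN genes were higher at 24 h, ZSCAN31 included, and 7 lower. Of the 7 ZKSCAN genes 2 were higher and 2 lower, where 25.7% of all tested genes were higher and 26.8% lower.

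**Figure D3:**
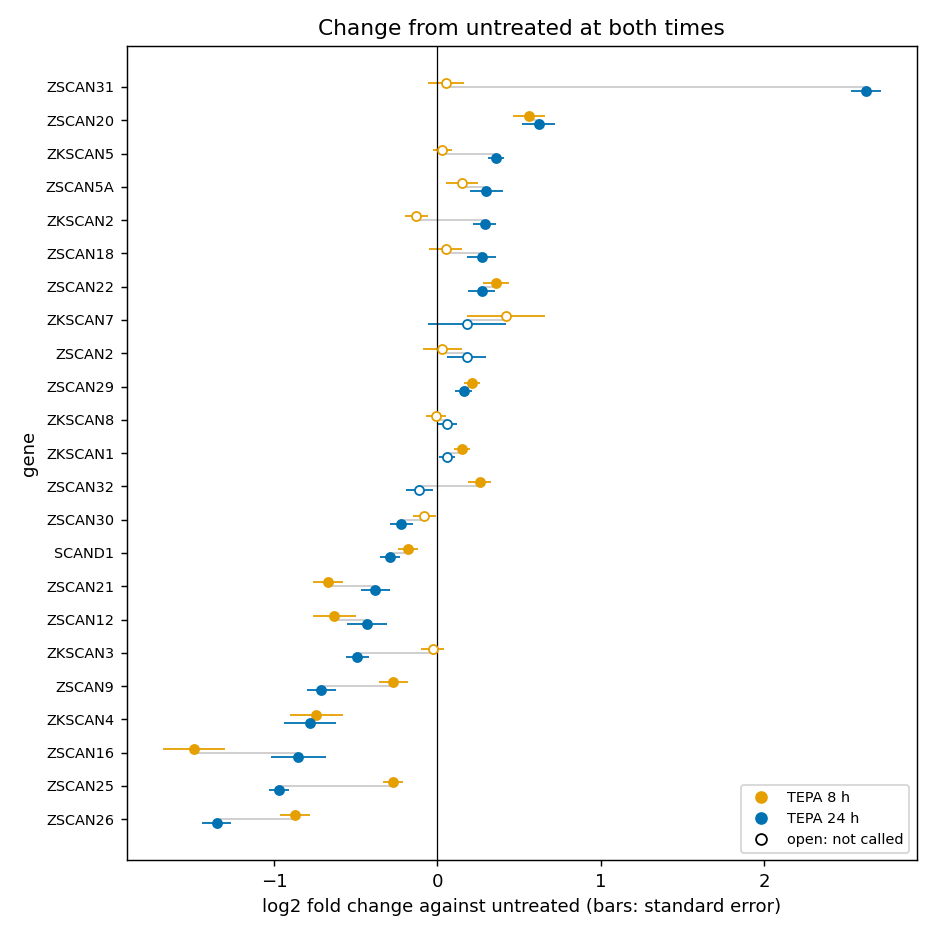
Log2 fold change of the 23 tested members against untreated cells at 8 h (orange) and 24 h (blue), with standard errors as bars and open points for genes that were not called at an adjusted p under 0.05. ZSCAN31 lies near 0 at 8 h (0.05) and at 2.62 at 24 h, and the lowest points are ZSCAN16 at 8 h (-1.49) and ZSCAN26 at 24 h (-1.35).

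ZSCAN25 (chr7:99616946-99632408, plus strand) had the second largest fall at 24 h. It was at 22.8, 25.1 and 22.9 CPM untreated, 18.8, 19.4 and 20.7 CPM at 8 h, and 11.6, 12.1 and 12.5 CPM at 24 h. Every 24 h library was below every 8 h library, and those were below every untreated one. The log2 fold change was -0.27 (SE 0.06, adjusted p = 0.0022) at 8 h and -0.97 (SE 0.06, adjusted p = 6.9e-09) at 24 h, with -0.71 (adjusted p = 2.5e-07) between the times. ZSCAN25 belongs to the run on chromosome 7, 4 members in 560.4 kb. Its neighbours took different courses, as ZSCAN21 was lower at both times, ZKSCAN1 was higher at 8 h and ZKSCAN5 was higher at 24 h.

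ZKSCAN5 and ZKSCAN2 were both KRAB-holding genes that were higher at 24 h. ZKSCAN5 was at 29.5, 32.0 and 32.0 CPM untreated, 29.6, 33.8 and 32.2 CPM at 8 h, and 39.2, 40.7 and 40.1 CPM at 24 h. For ZKSCAN5 the log2 fold change was 0.03 (adjusted p = 0.69) at 8 h and 0.36 (SE 0.05, adjusted p = 5.1e-05) at 24 h. The 24 h group stood above the other groups, which overlapped. ZKSCAN2, on chromosome 16, was at 14.3, 16.4 and 15 CPM untreated, 14, 14.5 and 13.5 CPM at 8 h, and 19, 17.8 and 19.2 CPM at 24 h. At 24 h its log2 fold change was 0.29 (SE 0.07, adjusted p = 0.0019), and again only the 24 h libraries stood apart.

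The run on chromosome 19 held 7 members in 2153 kb (chr19:56189686-58342332), of which 3 were tested and 4 were at most 2 counts in any library. ZSCAN22, ZSCAN5A and ZSCAN18 were all called higher at 24 h, at 0.27, 0.30 and 0.27 on the log2 scale, where 25.7% of all tested genes were higher. The last 2 calls depended on single libraries. ZSCAN5A was at 4.89 ± 0.136 CPM untreated and 6.0 ± 0.387 CPM at 24 h (adjusted p = 0.017), a call that fell away without TEPA 24 h replicate 1 (0.25, adjusted p = 0.084) and without untreated replicate 2 (0.28, adjusted p = 0.051). ZSCAN18, a gene known to be silenced by methylation in several carcinomas, was at 6.2 ± 0.223 CPM untreated and 7.43 ± 0.619 CPM at 24 h (adjusted p = 0.025). That call did not hold without TEPA 24 h replicate 1 (0.19, adjusted p = 0.15), without untreated replicate 2 (0.24, adjusted p = 0.069) and without untreated replicate 3 (0.26, adjusted p = 0.067).

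Of the rest, ZSCAN30 on chromosome 18 was at 14.4 ± 0.962 CPM untreated, 13.7 ± 0.319 CPM at 8 h and 12.4 ± 0.704 CPM at 24 h. It was called lower at 24 h (-0.22, adjusted p = 0.014), which did not hold without TEPA 24 h replicate 1 (-0.21, adjusted p = 0.052) and without TEPA 24 h replicate 2 (-0.19, adjusted p = 0.054). ZSCAN2 was at 4.4 ± 0.661 CPM untreated and 4.97 ± 0.228 CPM at 24 h (adjusted p = 0.22), with an adjusted p of 0.88 at 8 h. ZKSCAN7 was at 0.88, 0.569 and 0.634 CPM untreated, 0.925, 0.889 and 0.952 CPM at 8 h, and 0.667, 0.95 and 0.723 CPM at 24 h. Its 8 h libraries lay above all untreated ones and its 24 h libraries overlapped them, and neither comparison passed (0.42, SE 0.24, adjusted p = 0.16 and 0.18, SE 0.24, adjusted p = 0.57). For ZSCAN2 and ZKSCAN7 no difference was called at this depth and spread.

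Comparing 24 h directly with 8 h, 5 members were higher and 5 lower, 43.5% in all beside 54.8% of all tested genes (26% higher and 28.8% lower). With a log2 difference beyond 0.5, 2 were higher and 1 lower, 13% beside 21.2% of all tested genes. These counts of higher members include ZSCAN31, named in advance for its rise at 24 h. The groups did not overlap for 12 members (52.2%), against 62% of all tested genes. The higher genes were ZSCAN31, ZSCAN16, ZKSCAN2 (0.42, SE 0.07, adjusted p = 8.5e-05), ZKSCAN5 (0.33, SE 0.06, adjusted p = 0.00011) and ZSCAN21. The lower ones were ZSCAN25, ZSCAN26, ZKSCAN3 (-0.46), ZSCAN9 (-0.44, SE 0.09, adjusted p = 0.00083) and ZSCAN32. In this comparison the higher members thus mix genes that climbed above their untreated level, ZSCAN31, ZKSCAN2 and ZKSCAN5, with ZSCAN16 and ZSCAN21, which were still below it. ZSCAN18 had a log2 difference of 0.22 (adjusted p = 0.059) and was called with other scalings of the libraries.

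The SCAN domain also occurs in genes under other names, and a list of 27 of these was compared, of which 25 were tested. At 8 h, 7 were higher and 7 lower, 56% in all, and at 24 h 6 were higher and 8 lower, again 56%, beside 49.6% and 52.5% of all tested genes. The 7 higher at 8 h were 3 without untreated replicate 3 and 4 with DESeq2. Between the times 0 were higher and 10 lower, 40% in all beside 54.8% of all tested genes. MZF1, the myeloid zinc finger factor that pairs with SCAND1, rose from 9.75 ± 0.342 CPM to 20.8 ± 1.21 CPM at 8 h (log2 fold change 1.09, SE 0.07, adjusted p = 6.5e-09). It was at 13.5 ± 0.317 CPM at 24 h (0.47, adjusted p = 2.5e-05), lower than at 8 h by a log2 difference of -0.62 (adjusted p = 7.6e-07). ZNF483 rose at both times, from 1.38 ± 0.123 to 2.96 ± 0.0437 and 3.4 ± 0.274 CPM (adjusted p = 9.2e-06 and 9e-07).

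ZNF274, which recruits the histone methyltransferase SETDB1 to zinc finger genes, was higher by 0.39 at 8 h and 0.24 at 24 h on the log2 scale (adjusted p = 8e-06 and 0.00063), and ZNF213 was higher by 0.36 at 24 h (adjusted p = 0.00057). Besides PGBD1, the largest falls were those of ZNF496 and ZBED9. ZNF496 went from 49.8 ± 0.275 to 28.2 ± 1.3 and 24.9 ± 0.0609 CPM (log2 fold changes -0.82 and -1.0, adjusted p = 3.3e-09 and 1.9e-10). ZBED9, another transposase-derived SCAN gene, went from 0.778 ± 0.204 to 0.247 ± 0.127 and 0.193 ± 0.0751 CPM (log2 fold changes -1.66 and -2.05, adjusted p = 0.0019 and 0.00038), on few counts.

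KRAB domains of many zinc finger proteins recruit TRIM28 and its partners, so genes of these and of other silencing factors were listed too. The list held 16 genes, each of them tested. Whether the KRAB domains of the members bind TRIM28 was not tested. At 8 h, 3 were higher and 6 lower, and at 24 h 3 were higher and 7 lower, 56.2% and 62.5% in all beside 49.6% and 52.5% of all tested genes. Between the times 5 were higher and 6 lower, 68.8% in all beside 54.8%. TRIM28, the corepressor itself, was at 635 ± 33.1 CPM untreated, 601 ± 12.6 CPM at 8 h and 453 ± 20.9 CPM at 24 h. Its log2 fold change was -0.08 (adjusted p = 0.15) at 8 h and -0.49 (SE 0.04, adjusted p = 2.1e-07) at 24 h. The NuRD remodellers went in opposite directions, with CHD4 falling from 23.0 ± 0.91 to 17.3 ± 1.16 and 10.8 ± 0.432 CPM and CHD3 rising from 391 ± 4.24 to 530 ± 19.1 and 606 ± 8.88 CPM. Both were called at 8 h (adjusted p = 7.8e-05 and 1.2e-07) and at 24 h (adjusted p = 3e-09 and 1.3e-09). Exon overlaps with other genes were looked at for the members only, not for CHD4 or CHD3. SETDB1 was higher at both times, by 0.28 and 0.18 on the log2 scale (adjusted p = 6.5e-05 and 0.0023). MORC2, a chromatin compaction factor, was lower at both (-0.43 and -0.25, adjusted p = 9e-06 and 0.00097). UHRF1, which guides maintenance methylation of DNA, was lower at 24 h (-0.41, adjusted p = 1.9e-06), and CBX5, a heterochromatin protein, was higher there (0.24, adjusted p = 0.00013). DNMT1 was higher (0.30, adjusted p = 4.3e-05) and HDAC1 lower (-0.34, adjusted p = 4.6e-06) at 8 h.

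Of 537 other genes named ZNF followed by a number, 432 were tested. At 8 h, 105 were higher and 79 lower (42.6% in all), and at 24 h 104 were higher and 101 lower (47.5%), beside 49.6% and 52.5% of all tested genes, with median log2 fold changes of 0.03 and 0.04. Between the times 78 were higher and 108 lower (43.1%, beside 54.8%). The members had 56.5% and 78.3% called at these times with medians of -0.01 and 0.06. The 78.3% includes ZSCAN31, named in advance. SCAN genes under other names had 56% called at both times. None of these differences between lists was tested.

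**Figure D4:**
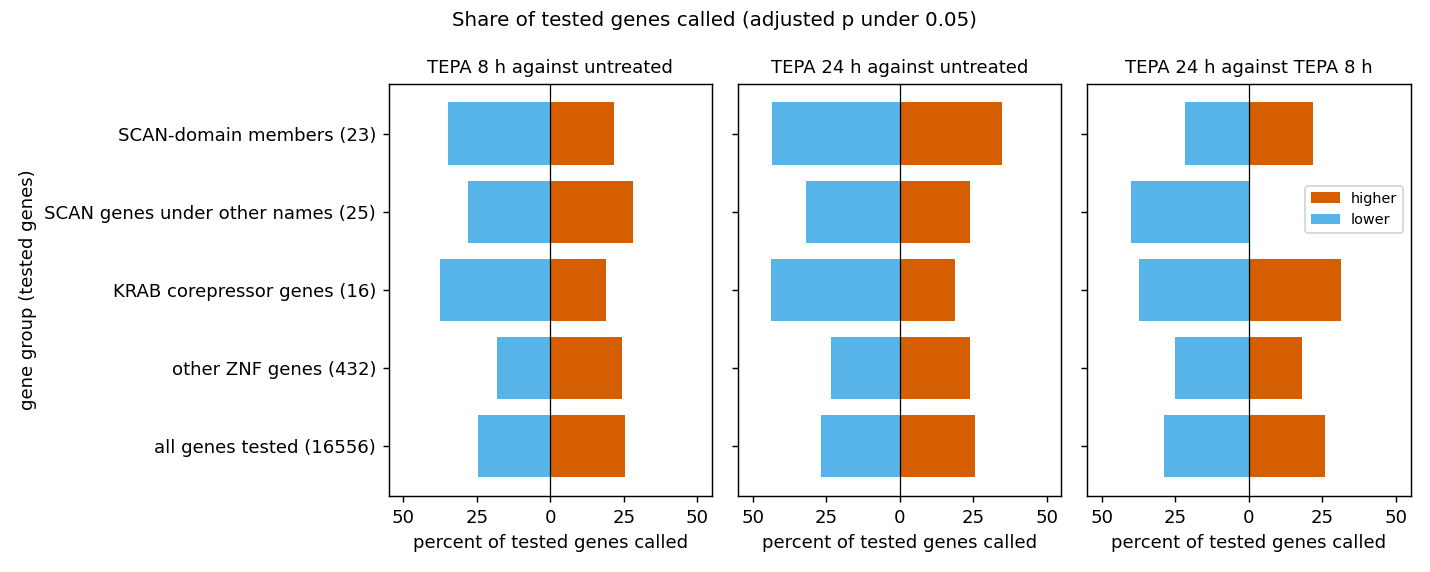
Percent of tested genes called higher (to the right) or lower (to the left) at an adjusted p under 0.05 in each comparison, for the SCAN-domain members, SCAN genes under other names, KRAB corepressor genes, other ZNF genes and all tested genes. The members reach 78.3% in both directions together at 24 h, beside 56% of SCAN genes under other names and 52.5% of all tested genes.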

How the data were processed

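RNA-Seq libraries came from untreated and TEPA-treated MDA-MB-231 cells. Per the labels and methods, the authors checked reads with FastQC, aligned paired 100-base reads to hg38 with HISAT2, and counted them with featureCounts over exons by gene name and with strand, using Ensembl release 103. The deposited values are raw counts without normalization, and 0 columns were left out. Total counts ran from 34633755 to 49342659.

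The whole table was fitted in R 4.3.3 with edgeR 4.0.16: filterByExpr with a minimum count of 10 left 16556 genes (99.95% of counts), TMM factors were 0.978 to 1.039, and 1 quasi-likelihood model held all 9 libraries. Benjamini-Hochberg adjustment ran over all tested genes, a gene was called at an adjusted p under 0.05, and SE is the absolute log2 fold change over the root of F. The biological coefficient of variation was 0.0481. Positions are from GENCODE 44. Tested on simulated data of 15951 genes for 24 h, the procedure recovered 93 of 98 genes changed by 1 and 95 of 96 changed by 2 on the log2 scale, with 12 unchanged genes called. The simulation gave all genes 1 common spread and changed 200 genes, at 24 h only, whereas 52.5% of tested genes were called in the data. Smaller changes were not simulated, and the median size among members at 24 h was 0.30, so these figures do not cover most calls here. Replicates of a group differed by more than counting noise (chi-square per degree of freedom 2.39 to 21.2). Genes that did not pass the filter gave no fold. Mitochondrial genes held 1.79 to 2.91% of counts in untreated libraries, 3.61 to 4.02% at 8 h and 1.89 to 2.02% at 24 h.

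Members and lists were chosen with earlier results of these data known. Named with values were ZSCAN31, SCAND1, the 6 highest and 6 lowest called members per comparison, untested members, and in the other lists the 3 highest and 3 lowest called genes against untreated cells. The rest of the tested members are given so that each is accounted for. The alternatives tried were upper-quartile or RLE factors, DESeq2 1.42.0, a fit without filter or with 10 counts in every library, a replicate block, only the 2 groups compared, a log2 fold change beyond 0.5, and leaving out each library.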

Additional observations from a re-analysis of the deposited data

Results flagged for a closer look

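For the genes below other than ZSCAN31, the change from untreated cells differed between 24 h and 8 h, by the test of 24 h against 8 h in edgeR's quasi-likelihood fit. ZSCAN31 was chosen for its rise at 24 h, and its log2 difference of 2.57 is given as a description. Log2 differences above 0, from 8 h to 24 h, were 0.65 for ZSCAN16, 0.42 for ZKSCAN2, 0.33 for ZKSCAN5 and 0.29 for ZSCAN21 among the members. The call of ZSCAN16 was not kept without TEPA 24 h replicate 1 (0.49, adjusted p = 0.080), nor that of ZSCAN21 without TEPA 8 h replicate 3 (0.23, adjusted p = 0.075). Differences below 0 were -0.71 for ZSCAN25, -0.48 for ZSCAN26, -0.46 for ZKSCAN3, -0.44 for ZSCAN9 and -0.37 for ZSCAN32. Of the SCAN genes under other names, MZF1 had -0.62, PGBD1 -0.47, ZNF496 -0.18 and ZNF274 -0.15, the last of which did not hold without TEPA 24 h replicate 3 (-0.10, adjusted p = 0.076) and without TEPA 8 h replicate 2 (-0.13, adjusted p = 0.065). Among corepressor genes, HDAC1 had 0.29, CBX5 0.24, CHD3 0.19 and MORC2 0.18, while CHD4 had -0.68, UHRF1 -0.47, TRIM28 -0.41 and DNMT1 -0.27.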

How the results depend on the processing

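The counts of called members were 5 higher and 8 lower at 8 h, 8 and 10 at 24 h, and 5 and 5 between the times. They were the same numbers with RLE or upper-quartile factors, DESeq2, either filter and only the 2 groups compared, except that 6 members were higher between the times with RLE, upper-quartile factors or only the 2 groups compared, where ZSCAN18 was added (log2 difference 0.23, 0.23 and 0.25). Another scaling moved the median of all genes by at most 0.027. With each library left out in turn, 4 to 5 were higher and 7 to 8 lower at 8 h, 5 to 8 and 9 to 11 at 24 h, and 4 to 6 and 5 to 6 between the times. The count of 11 lower includes a member that the main fit did not test, since no tested member gained a call at 24 h against untreated cells in these fits. Calls held in every such fit for 10 of 13, 14 of 18 and 8 of 10 genes. For single genes, 23 values lost and 11 gained a call under an alternative, 1484 kept their side of the threshold, and no value of any result changed sign while called.

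With a log2 fold change beyond 0.5, members counted 1 higher and 5 lower at 8 h, 2 and 5 at 24 h, and 2 and 1 between the times. SCAN genes under other names then counted 2 and 3, 1 and 5, and 2 lower between the times. Corepressor genes counted 0 and 0, 1 and 1, and 0 and 1, and other ZNF genes 35 and 29, 37 and 40, and 18 and 34. For SCAN genes under other names, the 7 higher at 8 h became 4 with DESeq2 and 3 to 6 with a library left out (3 without untreated replicate 3). Between the times, 0 were higher, against 2 with only the 2 groups compared and 0 to 1 with a library left out.

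With the replicate number as a block, 5 members were higher and 8 lower at 8 h, 8 and 10 at 24 h, and 5 and 5 between the times. The numbers did not pair the libraries, since deviations of same-numbered libraries from their group means correlated at -0.0801 to 0.0383, and libraries did not all correlate best with their own number. ZSCAN23 and the 5 other untested members had too few counts to be tested at this depth.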

Other observations

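Outside the naming rule, 8 further table entries carried SCAN in their name, antisense transcripts and pseudogenes among them, and 3 were tested. They were looked at after the values were known. The pseudogene SCAND2P had mean levels of 3.79, 6.09 and 7.59 CPM in untreated, 8 h and 24 h cells, with log2 fold changes of 0.68 (adjusted p = 0.00045 by edgeR's quasi-likelihood test) and 1.0 (adjusted p = 7.3e-06). ZKSCAN2-DT, a transcript that diverges from ZKSCAN2, was higher at 8 h (1.45, adjusted p = 0.00061) and stood at 0.41 (adjusted p = 0.30) at 24 h, while ZKSCAN2 itself had -0.13 (adjusted p = 0.14) and 0.29 (adjusted p = 0.0019). The difference of ZKSCAN2-DT between the times was -1.05 (adjusted p = 0.0041), and that of ZKSCAN2 was 0.42 (adjusted p = 8.5e-05).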
